A study of Homo sapiens with 33 samples.

Results

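The ABC drug efflux pumps are 9 membrane transporters that use ATP to move drugs, conjugates and signalling molecules out of cells. They were chosen by symbol (ABCB1, ABCC1, ABCC2, ABCC3, ABCC4, ABCC5, ABCC6, ABCC10 and ABCG2), and all 9 were found among the 29744 genes of the tables. Messenger RNA was sequenced from 11 cell lines of high-grade serous ovarian carcinoma, in 33 libraries (3 replicates of each line). OVCAR3, OVCAR4, PEA1 and PEO1 were the platinum-sensitive lines of 4 families. Their resistant partners were the ResA and ResB lines of OVCAR3 and of OVCAR4, PEA2 for PEA1, and both PEO4 and PEO6 for PEO1. The labels name the line only, and the roles (4 sensitive and 7 resistant lines) come from the study's text.

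The 4 ResA and ResB lines were selected from their parents by repeated pulses of cisplatin, were not kept in the drug afterwards, and are each a single derived line. PEA2, PEO4 and PEO6 were derived from the same patients as their sensitive partners, and PEO4 and PEO6 are thought to share a clone. No treatment at harvest is given in the labels for any line. The labels do not say that replicates were separate cultures, so the p-values measure the spread between these libraries, which may be technical.

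ABC pumps bind their cargo in a membrane-spanning core and expel it when paired nucleotide-binding domains hydrolyse ATP. ABCB1 and ABCG2 are the classical multidrug pumps, whereas the ABCC members export organic anions, many of them as glutathione, glucuronide or sulphate conjugates. Cisplatin can be conjugated to glutathione inside cells, and ABCC2 is the member most often studied with it.

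Libraries held 18.1 M to 43.4 M estimated counts, and each of the 33 was closest to another library of its own line. The share of counts on mitochondrial rRNA ran from 1.12% to 14.8%. It lay 4.42 to 5.33 times from the nearest other library of the same line in OVCAR3 ResB replicate 3 (1.12%), OVCAR4 ResA replicate 1 (9.23%) and OVCAR4 ResB replicate 1 (13.1%), and at most 2.32 times in any other library (OVCAR4 replicate 1, 5.18%). PAX8, a Müllerian lineage factor, was at 30.1 TPM or more in every line. PEA1 was low in the epithelial genes KRT7 (2.95 TPM, against 1190 in PEA2), CDH1 (1.26 against 204) and EPCAM. Over the 9 carcinoma markers the summed level was 431 TPM in PEA1 and 2610 to 6540 TPM in the other lines. Over 8 markers of leukocytes, endothelium and fibroblasts it was 1.09 to 18.9 TPM, with LUM at 17.7 TPM in OVCAR4 ResA, PECAM1 at 6.76 in OVCAR3 ResB, PDGFRB at 6.55 in PEA1 and PTPRC at 3.3 in PEA2. The part of these markers in the results was not tested. In bulk RNA, fewer cells with a transcript and less of it per cell cannot be told apart.

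ABCC1 was the most abundant pump transcript in 10 of the 11 lines, and ABCC4 was in PEA1. TPM (counts per effective gene length, scaled to the same sum in every library) allows levels of different genes to be compared. The 9 pumps summed to 34.4 TPM in OVCAR3 and to 124 TPM in OVCAR4 ResB, the lowest and highest lines. TPM scaling raised the median of all genes by 0.38 to 0.52 on the log2 scale in the OVCAR4 pairs, which limits comparison of such sums between lines. ABCC1 made up 20.0% of that sum in PEA1 and 64.2% in PEO4. ABCC3 made up 0.492% in OVCAR4 and 30.3% in PEA2. ABCB1, ABCC2 and, outside PEA2, ABCG2 stayed under 1 TPM in every line.

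**Figure D1:**
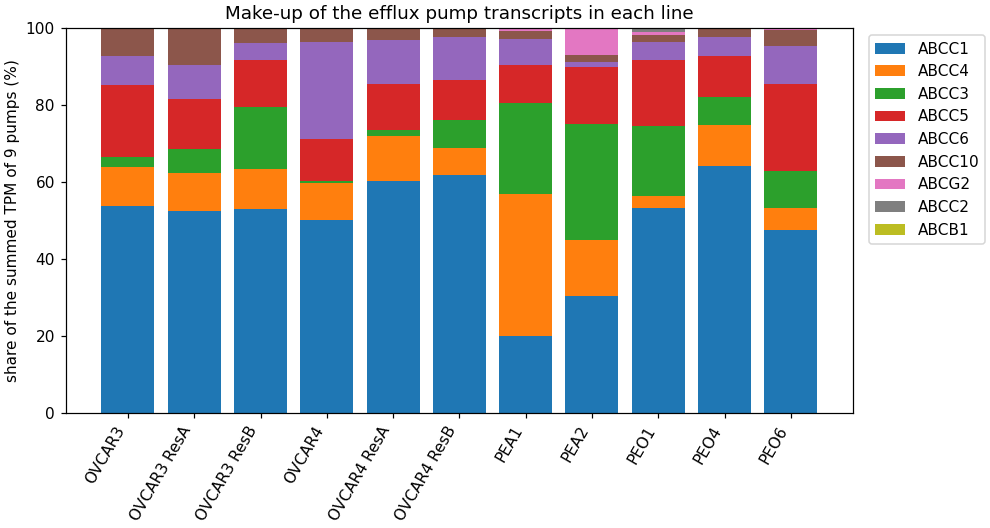
Share of the summed TPM (%, vertical axis) that each of the 9 pumps held in each line (horizontal axis), from the means of 3 libraries. ABCC1 is the largest segment in all lines but PEA1, where ABCC4 holds 36.9%.

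**Figure D2:**
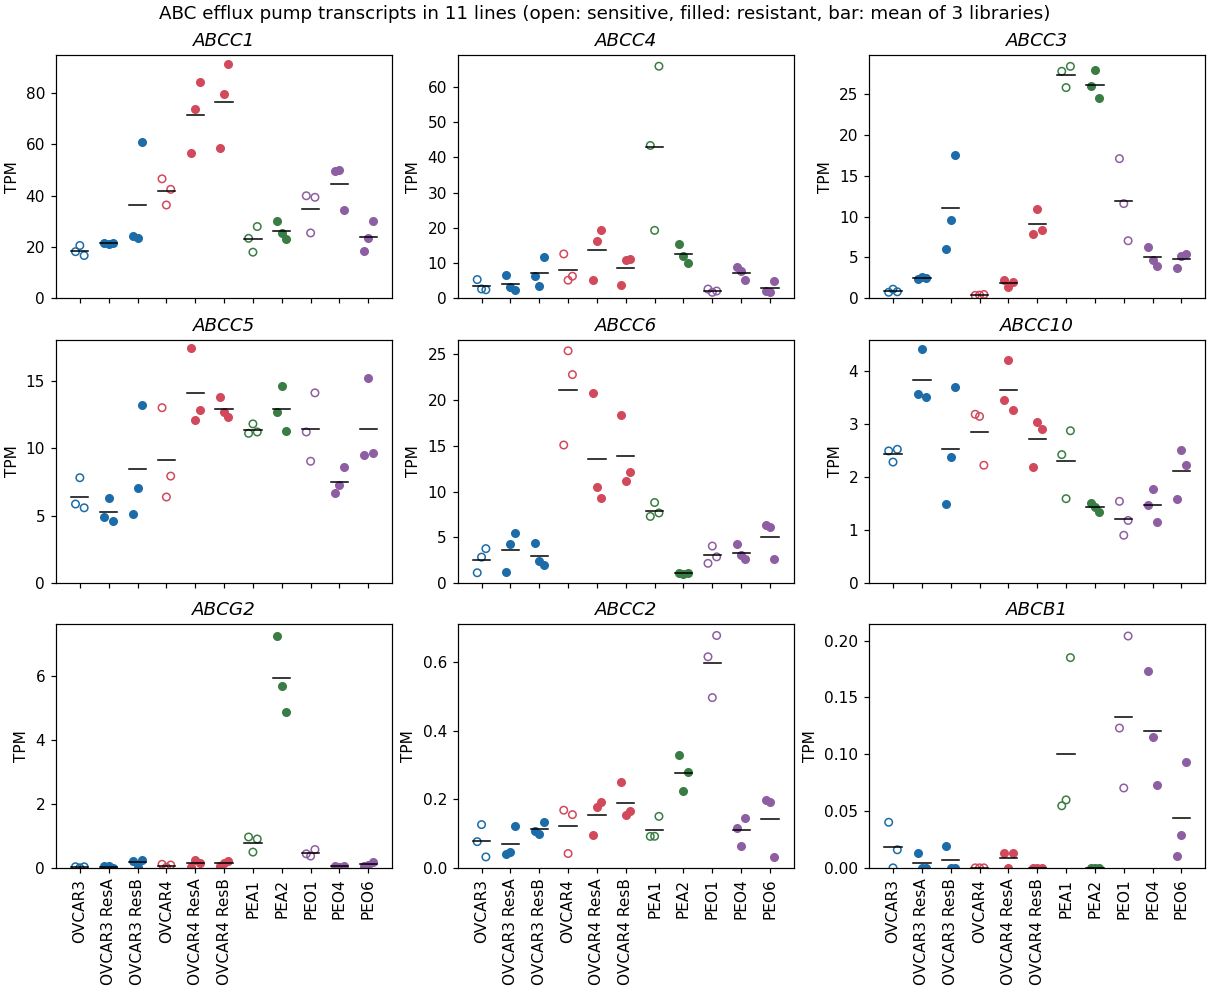
TPM of each pump (vertical axes, linear from 0 and scaled per gene) in 11 lines (horizontal axis), with open points for libraries of sensitive lines, filled points for resistant lines and a bar at the mean of 3. ABCG2 stands out in PEA2 at 5.95 TPM, and ABCB1 lies at or under 0.132 TPM in every line.

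Each resistant line was compared with its sensitive partner by the DESeq2 Wald test, and a gene was called at an adjusted p-value under 0.05. Over the 7 pairs, 20 pump comparisons were called, 8 higher and 12 lower in the resistant line, of 59 with an adjusted p-value (33.9%). The other 4 of the 63 were ABCB1, for which none was defined in the cisplatin-selected lines. Over all genes, 29.8% of comparisons with an adjusted p-value were called. Each of the 9 pumps was called in at least 1 pair, as were 76.3% of all genes with an adjusted p-value in any pair. Pairs of one family share their control libraries and are not independent.

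The number of pumps called in a pair is given beside the share of all genes called there. In OVCAR3 ResA, 2 pumps were higher and 1 lower, where 44.9% of all genes tested were called (22.0% higher and 22.9% lower). In OVCAR3 ResB, 1 was higher and 0 lower (7.67% of all genes, 4.10% higher and 3.57% lower). In OVCAR4 ResA, 1 was higher and 0 lower (11.9%, of which 6.68% higher and 5.22% lower). In OVCAR4 ResB, 1 was higher and 0 lower (17.9%, of which 9.09% higher and 8.77% lower). The pump called in these last 3 lines was ABCC3.

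In PEA2, 1 pump was higher and 3 lower, where 47.0% of all genes were called (23.3% higher and 23.8% lower). In PEO4, 1 was higher and 4 lower (33.3%, of which 16.6% higher and 16.7% lower). In PEO6, 1 was higher and 4 lower (41.4%, of which 21.2% higher and 20.3% lower). These counts changed when a replicate was left out. Without each replicate in turn, 0 to 1 pumps were called in OVCAR3 ResA, 0 to 2 in OVCAR4 ResA, 1 to 3 in OVCAR4 ResB, 3 to 6 in PEO4 and 2 in PEO6. Those fits had fewer libraries per line, which lowers power. The share of all genes called in them is not given, so a loss particular to the pumps cannot be told from a general one.

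The count of pumps whose 3 libraries in the resistant line did not overlap those of its partner was 2 in OVCAR3 ResA (36.7% of all genes did not overlap), 3 in OVCAR3 ResB (22.0%), 3 in OVCAR4 ResA (29.3%) and 3 in OVCAR4 ResB (34.4%). It was 8 in PEA2 (51.9%), 4 in PEO4 (39.0%) and 6 in PEO6 (43.3%). Between resistant lines of a family it was 4 in OVCAR3 ResB against ResA (29.2%), 2 in OVCAR4 ResB against ResA (22.2%) and 2 in PEO6 against PEO4 (34.7%).

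**Figure D3:**
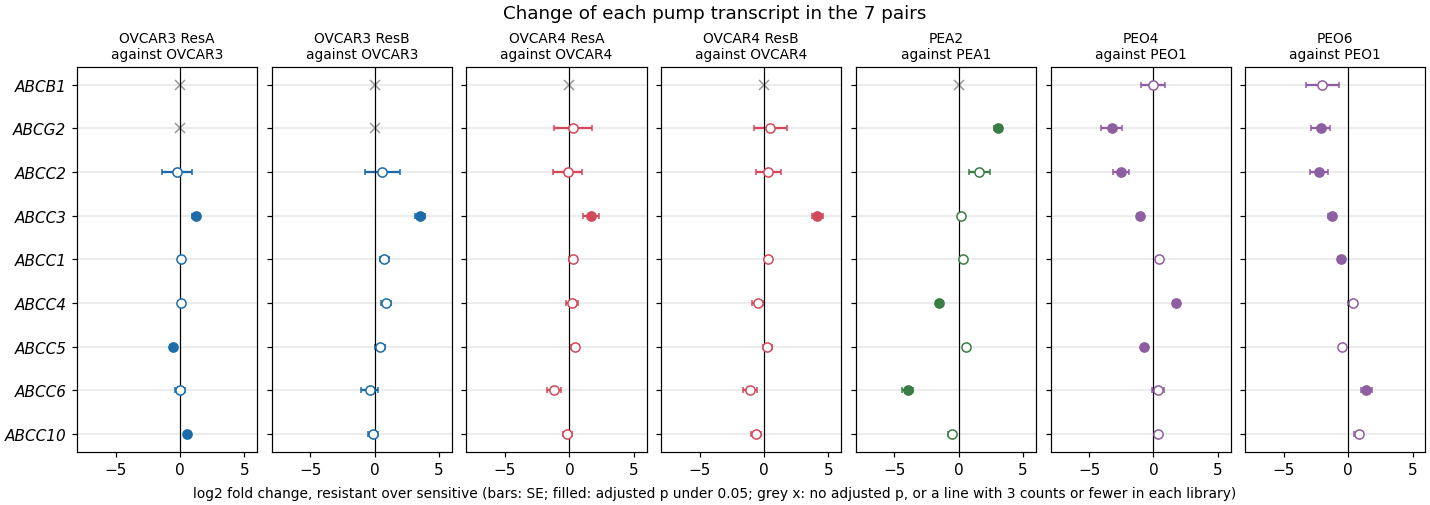
Log2 fold change of each pump (horizontal axes, resistant over sensitive, bars are SE) in the 7 pairs, filled where the adjusted p-value was under 0.05. ABCC3 lies to the right of 0 and is filled in all 4 cisplatin-selected lines, and to the left in PEO4 and PEO6.

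ABCC3, a basolateral exporter of glucuronides and bile salts, was higher in all 4 cisplatin-selected lines and lower in PEO4 and PEO6. Normalised counts are counts divided by the size factor of the library. In OVCAR4 they were 21, 33 and 44, in OVCAR4 ResA 153, 76 and 91, and in OVCAR4 ResB 653, 549 and 479. The 3 lines did not overlap, with ResB highest and the parent lowest. DESeq2 gave a log2 change of 4.13 ± 0.44 (SE, adjusted p = 2.87e-18) for ResB, a 17.5-fold difference. For ResA it was 1.68 ± 0.60 (DESeq2 adjusted p = 0.0452). In limma on log2(TPM + 1) the ResB call was lost (adjusted p = 0.058). The ResA call was lost without each replicate in turn (DESeq2 adjusted p from 0.136 to 0.447), without only OVCAR4 ResA replicate 1 (1.13, adjusted p = 0.142), and in edgeR (adjusted p = 0.13).

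The OVCAR3 family had the same order of lines. Normalised ABCC3 counts were 50, 93 and 60 in OVCAR3, 122, 162 and 190 in OVCAR3 ResA, and 483, 878 and 935 in OVCAR3 ResB. No library of a higher line fell among those of a lower line. The change was 3.50 ± 0.38 in ResB (DESeq2 adjusted p = 2.18e-17) and 1.26 ± 0.30 in ResA (adjusted p = 0.000102). Without replicate 3 the ResA value was 1.06 (DESeq2 adjusted p = 0.0585). The ResB call was lost in limma on log2(TPM + 1) (adjusted p = 0.19) and on log2(TPM + 0.1) (adjusted p = 0.0556).

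Compared directly, ResB exceeded ResA in both families. The difference was 2.24 ± 0.36 in OVCAR3 (DESeq2 adjusted p = 3.87e-08) and 2.45 ± 0.22 in OVCAR4 (adjusted p = 2.09e-27). In limma on TPM the OVCAR3 difference was not called (adjusted p from 0.0532 to 0.174). ABCC3 was the sole pump called higher in OVCAR3 ResB against ResA, where 13.5% of all genes were called (7.47% higher and 6.04% lower). In OVCAR4 ResB against ResA, 1 pump was higher and 1 lower (32.8% of all genes, 16.2% higher and 16.5% lower).

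In the patient-derived lines ABCC3 took other directions. PEO1 had 1223, 1059 and 476 normalised counts, PEO4 484, 380 and 353, and PEO6 327, 408 and 369. The PEO1 library at 476 fell within the range of PEO4, so those lines overlapped, while all PEO6 libraries were below PEO1. The change was -1.07 ± 0.23 in PEO4 (DESeq2 adjusted p = 3.75e-05, and 0.0562 without replicate 1) and -1.24 ± 0.30 in PEO6 (adjusted p = 0.000221). The PEO6 call was lost in limma on log2(TPM + 1) (adjusted p = 0.142) and on log2(TPM + 0.1) (adjusted p = 0.0903). PEA1 and PEA2 held the highest levels, 27.3 ± 1.34 and 26.1 ± 1.71 TPM (SD, n = 3), and their difference was 0.16 (95% interval -0.27 to 0.59, DESeq2 adjusted p = 0.587). Of the 10 steps between lines ordered by mean TPM, 6 had no overlap of libraries for ABCC3, the most of any pump.

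**Figure D4:**
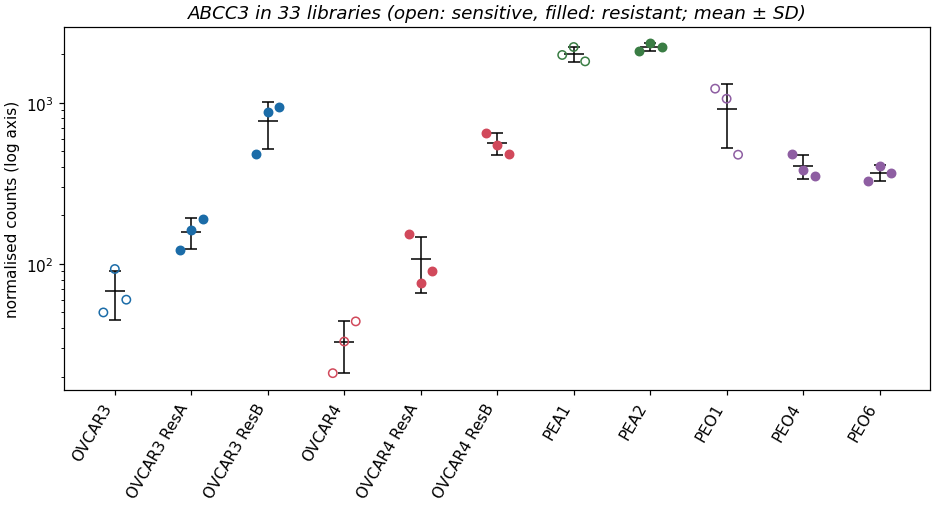
Normalised counts of ABCC3 (vertical log axis) in each of 33 libraries by line (horizontal axis), with open points for sensitive lines, filled points for resistant lines and bars for mean ± SD of 3. Counts rise from parent to ResA to ResB in OVCAR3 and OVCAR4, and PEA1 and PEA2 lie together near 2000.

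ABCG2, known as breast cancer resistance protein, was above 1 TPM in PEA2 alone. Its promoter is shown because ABCG2 had the lowest adjusted p-value of any pump in PEA2. The sequence is from RefSeq (GRCh38.p14, minus strand, chr4:88158810-88159109), which covers 250 bases before to 50 after a transcript start, and is the entry of 5 with the highest G+C share (72.3%). Capitals mark the motifs found on either strand, GC box (GGGCGG) and xenobiotic response core (GCGTG).
ABCG2: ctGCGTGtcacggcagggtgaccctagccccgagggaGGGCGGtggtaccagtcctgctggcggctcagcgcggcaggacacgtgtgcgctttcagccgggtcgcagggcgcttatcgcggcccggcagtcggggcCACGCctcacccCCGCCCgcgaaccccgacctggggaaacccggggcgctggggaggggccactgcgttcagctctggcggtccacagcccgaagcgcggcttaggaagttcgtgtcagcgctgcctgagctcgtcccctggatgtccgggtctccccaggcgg
It held 2 GC boxes and 2 xenobiotic response cores, motifs present in 45.0% and 36.5% of 35116 RefSeq promoters of this length. Those shares count presence in any entry, whatever its G+C share, whereas this window was picked for its high G+C share. The motif matches are letters only and were not tested as sites.

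Normalised ABCG2 counts were 61, 37 and 54 in PEA1 and 481, 403 and 367 in PEA2. Every PEA2 library was above every PEA1 library. The log2 change was 3.06 ± 0.31 (DESeq2 adjusted p = 4.05e-21), 8.33-fold, and the call held without each replicate. PEA1 is also the line low in epithelial genes, and that difference was not separated from this change. PEO1 had 27, 29 and 36 normalised counts, PEO4 3, 2 and 5, and PEO6 4, 6 and 12. The change was -3.26 ± 0.83 in PEO4 (DESeq2 adjusted p = 0.000458, and 0.0668 without replicate 2) and -2.14 ± 0.76 in PEO6 (adjusted p = 0.015, and 0.117 to 0.215 without each replicate). In OVCAR3 ABCG2 had 2, 0 and 3 normalised counts and in OVCAR3 ResB 16, 3 and 13, which was not called (DESeq2 adjusted p = 0.399). PKD2, whose gene lies 12486 bases from ABCG2 in RefSeq, was lower in PEA2 (-1.49 ± 0.25), PEO4 (-1.17 ± 0.21) and PEO6 (-0.66 ± 0.26), so it moved with ABCG2 in both PEO pairs and against it in PEA2. It was not called in the other 4 pairs.

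ABCB1, or P-glycoprotein, the best known multidrug pump, was barely detected. In 22 of 33 libraries it had 3 counts or fewer, and no library held over 16. PEA1 had 4, 5 and 12 normalised counts and PEA2 had 0 in each library. The pair was called (DESeq2 adjusted p = 0.0291), with PEA2 at least 2.65-fold lower against a floor of 3 counts per library, and no adjusted p-value was defined once any replicate was left out. The floor covers counting error only.

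ABCC2, the apical conjugate pump, was highest in PEO1, at 0.596 TPM, and lower in both of its resistant partners. Normalised counts were 46, 46 and 52 in PEO1, 9, 5 and 12 in PEO4, and 18, 16 and 2 in PEO6. All PEO1 libraries were above all those of PEO4 and PEO6. The change was -2.50 ± 0.61 in PEO4 (DESeq2 adjusted p = 0.000244, and 0.0688 without replicate 2) and -2.29 ± 0.70 in PEO6 (adjusted p = 0.00423, and 0.198 without replicate 3). DNMBP, the next gene, 22976 bases away, was lower in the same pairs (-1.44 ± 0.18 and -2.30 ± 0.23). DNMBP was also called in the 4 cisplatin-selected lines, where ABCC2 was not, lower in OVCAR3 ResA (-0.86) and ResB (-1.64) and higher in OVCAR4 ResA (1.91) and ResB (1.69).

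ABCC1, the founding member of the family and an exporter of glutathione conjugates, was present everywhere, from 18.5 ± 1.97 TPM (SD, n = 3) in OVCAR3 to 76.5 ± 16.6 in OVCAR4 ResB. Its log2 change was above 0 in 6 of the 7 pairs, and the single call was lower, in PEO6. PEO1 had 3845, 2940 and 3717 normalised counts and PEO6 2008, 2372 and 2819, with no overlap. The change was -0.57 ± 0.23 (DESeq2 adjusted p = 0.0329), and the call was lost without each replicate (adjusted p from 0.0762 to 0.305) and in edgeR (0.0524). PEO6 was also below PEO4 (-0.97 ± 0.30, DESeq2 adjusted p = 0.0114, and 0.422 without replicate 2). In PEO6 against PEO4, 0 pumps were higher and 2 lower (18.2% of all genes called, 9.86% higher and 8.33% lower).

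ABCC4, an exporter of cyclic nucleotides and prostaglandins, was lower in PEA2 and higher in PEO4. Its promoter is shown for that pair of calls (RefSeq GRCh38.p14, minus strand, chr13:95301402-95301701, G+C 79.7%), with the antioxidant response core (TGACNNNGC) and xenobiotic response cores in capitals.
ABCC4: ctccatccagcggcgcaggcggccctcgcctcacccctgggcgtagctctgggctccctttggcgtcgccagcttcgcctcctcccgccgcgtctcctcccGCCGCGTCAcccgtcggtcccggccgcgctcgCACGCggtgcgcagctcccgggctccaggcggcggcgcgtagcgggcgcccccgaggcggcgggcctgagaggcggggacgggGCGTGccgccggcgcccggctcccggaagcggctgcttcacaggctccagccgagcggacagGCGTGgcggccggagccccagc
The antioxidant response core occurred once, and 13.3% of RefSeq promoters hold it. The window also had 3 xenobiotic response cores. PEA1 had 3687, 1984 and 5219 normalised counts of ABCC4 and PEA2 1376, 1131 and 1039, and every PEA1 library was higher. The change was -1.51 ± 0.29 (DESeq2 adjusted p = 1.81e-06), in the pair where PEA1 was low in epithelial genes. PEO1 had 225, 185 and 184, PEO4 777, 715 and 520, and PEO6 222, 177 and 413. PEO4 stood above PEO1 in every library (1.77 ± 0.22, DESeq2 adjusted p = 6.38e-15), and PEO6 overlapped PEO1 (0.34, 95% interval -0.32 to 0.99). PEO6 was lower than PEO4 (-1.44 ± 0.38, DESeq2 adjusted p = 0.0021, and 0.351 without replicate 2).

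In the OVCAR4 family ABCC4 depended on replicate 1. Normalised counts were 1229, 697 and 771 in OVCAR4, 510, 1290 and 1423 in ResA, and 386, 798 and 791 in ResB, in replicate order. Replicate 1 was the highest library of the parent and the lowest of both resistant lines. Without it, ResA exceeded OVCAR4 (0.89, DESeq2 adjusted p = 0.00026), which was not called with all libraries (0.18, adjusted p = 0.865). ResB was below ResA (-0.64 ± 0.15, DESeq2 adjusted p = 0.00011, and 0.478 without the replicate block), although their libraries overlapped.

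ABCC5, another nucleotide exporter, varied least among the pumps above 1 TPM in all lines, from 5.28 to 14.1 TPM, and no neighbouring lines in its order were separate. OVCAR3 had 301, 522 and 380 normalised counts and OVCAR3 ResA 232, 304 and 253, which overlapped by 1 library. The change was -0.56 ± 0.18 (DESeq2 adjusted p = 0.00669, and 0.0674 to 0.208 without each replicate). PEO4 was lower than PEO1, with 471, 460 and 591 against 824, 711 and 1010 and no overlap (-0.71 ± 0.19, DESeq2 adjusted p = 0.000984, and 0.136 without replicate 1).

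ABCC6, a liver and kidney transporter whose loss causes ectopic mineralisation, has near-identical copies, ABCC6P1 and ABCC6P2, and reads could be split between them, so its values are uncertain. Its promoter is shown as the pump with the deepest fall in PEA2 with counts in both lines (RefSeq GRCh38.p14, minus strand, chr16:16223422-16223721, G+C 71.0%), and none of the motifs searched, including the CCAAT box (CCAAT) and TATA box (TATAAA), occurred in it.
ABCC6: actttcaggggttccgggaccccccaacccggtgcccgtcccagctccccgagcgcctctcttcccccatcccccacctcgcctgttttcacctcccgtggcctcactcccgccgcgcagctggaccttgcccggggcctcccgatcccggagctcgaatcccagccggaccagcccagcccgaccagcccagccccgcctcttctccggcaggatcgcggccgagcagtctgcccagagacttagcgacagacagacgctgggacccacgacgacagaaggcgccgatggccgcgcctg
PEA1 had 187, 202 and 190 normalised counts of ABCC6 and PEA2 10, 11 and 17. All PEA2 libraries were far below PEA1. The change was -3.96 ± 0.43 (DESeq2 adjusted p = 3.75e-19), 15.6-fold, and -3.32 when the copies were summed with it. PEO6 was higher than PEO1, with 140, 154 and 72 against 40, 59 and 35 and no overlap (1.41 ± 0.41, DESeq2 adjusted p = 0.00241). Summed with the copies, it was 0.69 (DESeq2 adjusted p = 0.0972), and the call was also lost without replicate 1 (0.145) or replicate 2 (0.123). In OVCAR3 ResA the sum was higher (0.68, DESeq2 adjusted p = 0.0341), whereas ABCC6 alone was not (0.03, adjusted p = 0.96).

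OVCAR4 had the highest ABCC6 level, 21.1 ± 5.36 TPM (SD, n = 3). Normalised counts were 166, 368 and 311 in OVCAR4, 226, 94 and 82 in ResA, and 223, 94 and 99 in ResB, in replicate order. Replicates 2 and 3 were lower in both resistant lines and replicate 1 was higher, and neither pair was called (-1.20 and -1.10, DESeq2 adjusted p = 0.14 and 0.136). Without replicate 1 the changes were -1.95 (DESeq2 adjusted p = 5.98e-07) and -1.80 (adjusted p = 2.55e-06). Replicate 1 had 5.18% mitochondrial rRNA counts in OVCAR4, where the others had 12.0% and 14.8%, and 9.23% and 13.1% in ResA and ResB, where the others had 2.02% to 2.47%. The part of this share in the ABCC4 and ABCC6 values was not tested.

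**Figure D5:**
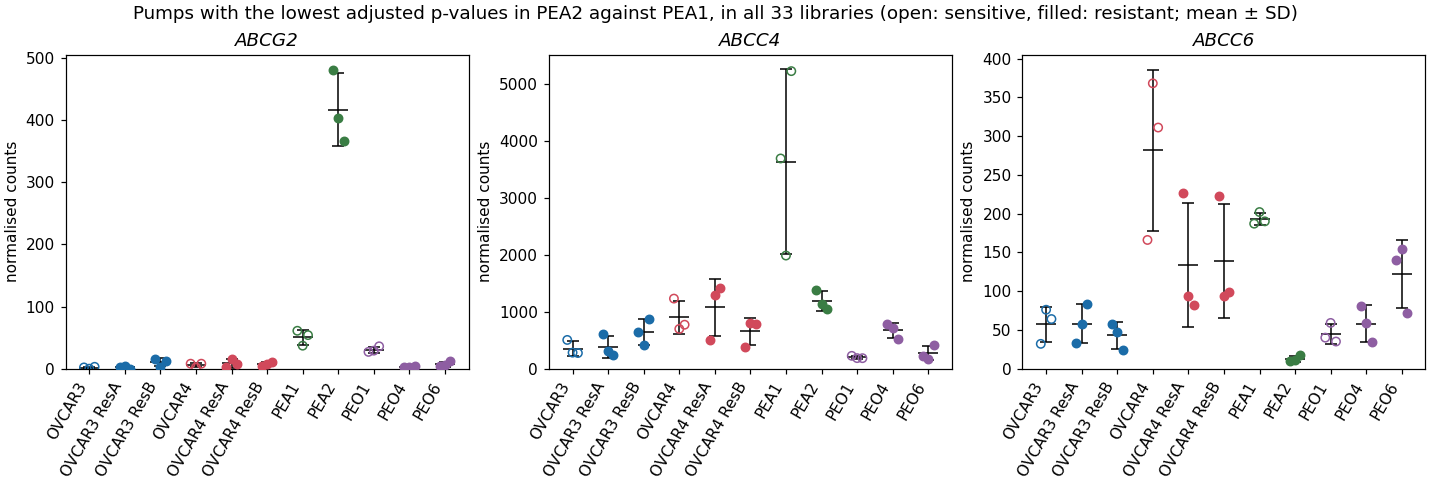
Normalised counts (vertical axes, linear from 0) of ABCG2, ABCC4 and ABCC6 in 33 libraries by line (horizontal axes), with open points for sensitive lines, filled points for resistant lines and bars for mean ± SD of 3. PEA2 is above PEA1 for ABCG2 and below it for ABCC4 and ABCC6, and replicate 1, the leftmost point of each line, runs against the others for ABCC6 in the OVCAR4 family.

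ABCC10, which exports taxanes among other drugs, lay between 1.21 and 3.83 TPM. OVCAR3 had 209, 221 and 251 normalised counts and OVCAR3 ResA 277, 363 and 320, without overlap. The change was 0.51 ± 0.20 (DESeq2 adjusted p = 0.0226), and it was lost without each replicate (adjusted p from 0.134 to 0.302). In PEO6 it was 0.81 ± 0.36 (DESeq2 adjusted p = 0.0568), which passed in edgeR (adjusted p = 0.0311).

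With the line as the unit, 0 of 9 pumps differed between the 7 resistant and 4 sensitive lines in DESeq2, where 0.286% of all genes were called (0.130% higher and 0.156% lower). None had an unadjusted p under 0.05 (lowest 0.175). In edgeR and limma 0 pumps were called, but also 0 of all genes, so those fits say nothing particular to the pumps. Without the PEO family, 3 pumps had an unadjusted p under 0.05 (lowest 0.0034) in DESeq2, and none passed the adjustment. They were ABCC3 (2.34, DESeq2 adjusted p = 0.131), ABCC6 (-1.48, adjusted p = 0.341) and ABCG2 (1.62, adjusted p = 0.356). Without replicate 1, ABCC6 alone had an unadjusted p under 0.05 (0.0422), with a change of -1.24 and a DESeq2 adjusted p = 0.544. ABCC3 had the largest positive estimate, 0.98 ± 0.78 on the log2 scale. A likelihood ratio test in DESeq2 called the change unequal over the 7 pairs for 8 of 9 pumps, and for 70.2% of all genes. ABCB1 was not called unequal in DESeq2 (adjusted p = 0.083), and was in edgeR (adjusted p = 0.0359). ABCC2 lost the call without replicate 1 (DESeq2 adjusted p = 0.0828) and ABCC5 without replicate 3 (0.0512).

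The other 39 ABC transporters measured were called in 82 comparisons, 45 higher and 37 lower, of 193 with an adjusted p-value (42.5%, against 29.8% over all genes). TAP1, a subunit of the peptide transporter of antigen presentation, was higher in 5 pairs and lower in 1, from 2.21 ± 0.24 in PEO6 to -1.32 ± 0.27 in PEA2. ABCG1, a sterol exporter, was higher in 2 pairs and lower in 4. ABCA1, another sterol exporter, was higher in 1 and lower in 3, including -3.89 ± 0.26 in PEA2.

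Of 12 regulators of pump genes, 19 of 62 comparisons with an adjusted p-value were called (30.6%, 7 higher and 12 lower). YBX1, a Y-box factor, was lower in 4 pairs and PPARA, a nuclear receptor, was higher in 3 and lower in 2. AHR, the receptor that binds the xenobiotic response element, was higher in PEA2 (2.93 ± 0.22) and lower in OVCAR3 ResA (-0.73 ± 0.17). The part of AHR in the level of any pump was not tested. Of 7 genes of glutathione supply, 19 of 49 comparisons were called (38.8%, 7 higher and 12 lower). GCLC, the catalytic subunit of the rate-limiting enzyme, was higher in 4 pairs and lower in 0, with 1.68 ± 0.18 in PEO4. GCLM, the other subunit of that enzyme, was higher in 0 pairs and lower in 3. SLC7A11, the cystine importer, and MGST1, a microsomal transferase, were each higher in 1 pair and lower in 3. Of 5 scaffold genes that anchor pumps at the membrane, 15 of 35 comparisons were called (42.9%, 8 higher and 7 lower), among them MSN (3 higher, 2 lower), SLC9A3R1 (2 higher, 2 lower) and PDZK1 (2 higher, 1 lower).

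The genes whose line means were most like those of each pump were found by Pearson r of log2(TPM + 1) over 11 lines among about 13184 genes, as a description with no test. The lines of a family share origin. ERLIN1 (r = 0.944) and DPY19L1 (0.934) were most like ABCC3. LINC00944 (0.993) and WSCD1 (0.992) were most like ABCG2, and all 3 had their highest level in PEA2. For ABCC1 they were ZNF629 (0.947) and WAPAL (0.928), for ABCC4 TMEM92 (0.938) and PSMB6 (0.911), and for ABCC5 ZZZ3 (0.945) and HMMR (0.936). NDUFA2 (0.964) and HIGD2A (0.962) were most like ABCC6, and AC074138.3 (0.952) and LOC101928745 (0.929) were most like ABCC10. The next genes on either side of a called pump had an adjusted p-value in 27 of 36 combinations of pump, neighbour and pair. Of these, 9 were called in the direction of the pump and 3 in the opposite one, or 44.4%. The 29.8% of all genes called over the pairs is not a matched base, since most combinations came from pairs with a higher share. Those shares were 44.9% in OVCAR3 ResA, 47.0% in PEA2, 33.3% in PEO4 and 41.4% in PEO6. An excess of calls among neighbours therefore cannot be read from these values. The opposite calls were PKD2 in PEA2 and the neighbours ABCC1 and ABCC6 in PEO6, counted from both sides. The last 2 are both called pumps, so their calls were fixed by the choice of combinations.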

How the data were processed

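RNA from 11 lines was sequenced as poly(A)-selected libraries. The authors ran an nf-core pipeline against GRCh38 (the build and DRAGEN are named in the submitters' processing notes) and salmon. The authors deposited expected counts per gene, 88.4% of them whole, and TPM, which carries no depth. Strand use in counting is not given in the sources used here, so overlapping genes are uncertain.

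Expected counts were rounded and tested in R 4.3.3 with DESeq2 1.42.0 (Wald test, replicate number as a block, 6 libraries per comparison). No count filter was applied beforehand, and the threshold was an adjusted p under 0.05. The study likewise fitted each pair in DESeq2 with line and replicate, at the same threshold. The independent filtering of DESeq2 left 14993 to 18160 genes with an adjusted p per pair. Alternatives were edgeR 4.0.16, limma 3.58.1 on log2(TPM + 1), other filters and scalings, all 33 libraries, and each replicate left out. Leaving out the 3 libraries whose mitochondrial rRNA share lay furthest from their line was chosen after seeing the data. The line-level test used counts summed per line with family as a covariate. Fitting was tested on simulated data.

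Same-numbered libraries were checked by correlating their deviations from line means. All 3 correlations exceeded 0.1 in OVCAR3 ResA against OVCAR3 (0.636, 0.218 and 0.426) and OVCAR4 ResB against ResA (0.63, 0.446 and 0.489), and not in the other 8 comparisons. Totals were 18.1 M to 43.4 M counts. The members and lists were chosen with earlier results of these data known. All 9 pumps were named, up to 3 genes of each other list (those called in most pairs), the 2 genes most like each pump, and its neighbours in RefSeq GRCh38.p14. GCLM was named in addition, as the other subunit of the enzyme of GCLC. Promoters were found for 7 of 9 pumps.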

Additional observations from a re-analysis of the deposited data

Results flagged for a closer look

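The change was not equal over the 7 pairs for 8 pumps (DESeq2 likelihood ratio test, adjusted p): ABCC3 5.81e-50, ABCG2 1.95e-16, ABCC6 1.63e-10, ABCC1 9.11e-08, ABCC4 5.16e-07, ABCC10 2.35e-06, ABCC5 2.77e-05 and ABCC2 0.000119. The same test called 70.2% of all genes, with libraries rather than lines as its units. The calls of ABCC2 (0.0828 without replicate 1) and ABCC5 (0.0512 without replicate 3) were lost. Resistant lines of one family were called different in 5 cases. The share of all genes called was 13.5% in OVCAR3 ResB against ResA, 32.8% in OVCAR4 ResB against ResA and 18.2% in PEO6 against PEO4. ABCC3 was 2.24 higher on the log2 scale in OVCAR3 ResB than ResA and 2.45 higher in OVCAR4 ResB than ResA. ABCC4 differed by -0.64 in OVCAR4 ResB against ResA and by -1.44 in PEO6 against PEO4, and ABCC1 by -0.97 in PEO6 against PEO4. The ABCC3 call in OVCAR3 ResB against ResA was lost in limma on log2(TPM + 1) (adjusted p = 0.174). The ABCC4 call in OVCAR4 was lost without the replicate block (DESeq2 adjusted p = 0.478). Both calls in PEO6 were lost without replicate 2 (DESeq2 adjusted p = 0.351 for ABCC4 and 0.422 for ABCC1).

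In 5 cases the mean of a line stood apart from the other lines of its role by Dixon's ratio. Chance alone gives this in about 1 of 20 groups of independent values. Lines of a family share origin, so that rate cannot be applied to these cases. Among resistant lines these were ABCG2 in PEA2 (5.95 TPM), ABCC3 in PEA2 (26.1 TPM) and ABCB1 in PEO4 (0.12 TPM, where no library exceeded 16 counts). Among sensitive lines they were ABCC4 in PEA1 (42.8 TPM) and ABCC2 in PEO1 (0.596 TPM). The sensitive partner was at a like level for ABCC3 (27.3 TPM in PEA1) and ABCB1 (0.132 TPM in PEO1). It was lower for ABCG2 (0.787 TPM in PEA1).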

How the results depend on the processing

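No pump reversed direction past the threshold under any alternative run. Over the 7 pairs 20 pump comparisons were called, 21 in edgeR, 22 with no replicate block, 24 with all 33 libraries in one fit and 9 to 11 in limma on TPM. Called pumps per comparison, without each replicate in turn, ran from 0 to 1 in OVCAR3 ResA (3 with all), 0 to 2 in OVCAR4 ResA (1), 1 to 3 in OVCAR4 ResB (1), 3 to 6 in PEO4 (5), 2 to 2 in PEO6 (5), 1 to 2 in OVCAR4 ResB against ResA (2) and 0 to 2 in PEO6 against PEO4 (2). Without OVCAR4 ResA replicate 1 alone there were 2 calls in that pair, and without OVCAR4 ResB replicate 1 alone 3. With all 33 libraries there were 1 in OVCAR3 ResA, 3 in OVCAR3 ResB, 2 in OVCAR4 ResB, 5 in OVCAR3 ResB against ResA and 1 in OVCAR4 ResB against ResA. In edgeR there were 0 in OVCAR4 ResA. In limma on log2(TPM + 1) there were 0 in OVCAR3 ResB, OVCAR4 ResA, OVCAR4 ResB, PEO6, OVCAR3 ResB against ResA and PEO6 against PEO4, and 2 in PEA2. With a pseudocount of 0.1 there were 1 in OVCAR3 ResA, 0 in OVCAR3 ResB, OVCAR4 ResA, OVCAR3 ResB against ResA and PEO6 against PEO4, 2 in PEO6 and 1 in OVCAR4 ResB against ResA. With genes of at least 1 TPM there were 0 in OVCAR4 ResA, OVCAR3 ResB against ResA and PEO6 against PEO4, 2 in PEO4 and 1 in PEO6. Without the replicate block there were 2 in OVCAR3 ResB against ResA and 1 in OVCAR4 ResB against ResA, where the numbers paired the libraries. The cause of these shifts was not tested. The share of all genes called in each alternative is not given, so a shift of the pumps alone cannot be told from one of all genes. TPM scaling moved the median of all genes by 0.38 to 0.52 in the OVCAR4 pairs. ABCB1, ABCC2 and ABCG2 had few counts in most lines, which limits the precision of their changes, and ABCB1 had no adjusted p-value in 4 pairs.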
